A study of Mus musculus with 6 samples.

Results

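The interferon response genes measured here were 29 mouse genes that type I or type II interferon induces or that carry its signal. They were chosen as a list of named genes, and their probes were those whose gene name in the scanner files was on the list. All 29 were among the 27699 named genes of the array. They were read by 43 probes, 40 of which passed a filter on dim signals, and each of the 29 had at least 1 probe among the 20409 genes tested.

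RNA came from epithelial sheets of the mouse forestomach, the squamous-lined part of the stomach. The 3 control mice were K5-CreER, which drives a tamoxifen-activated Cre recombinase from the keratin 5 promoter of basal cells. The 3 mutants were K5-CreER;Rosa26Sox2/Sox2, so they carried the same Cre with a Sox2 transgene placed at both copies of Rosa26. All animals, controls included, received 2 doses of tamoxifen at 7 weeks, were labelled as 12 weeks old and were of a 129/Sv and C57/BL6 mixture. Recombination is limited by this design to cells with an active keratin 5 promoter and their descendants. Each sample was labelled with Cy5 and hybridised on 1 array, beside Cy3-labelled Universal Mouse Reference RNA pooled from 11 cell lines. A value below is the log2 ratio of sample over reference after normalization, and a difference is mutant minus control on the log2 scale. A probe's ratio depends on how much of the gene the reference cell lines make, so ratios are not compared between genes.

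Interferons are secreted proteins, and cells release those of type I and type III after sensing viral or bacterial nucleic acid. Type I and type III interferons act through the kinases Jak1 and Tyk2 and the factor ISGF3, a complex that holds Stat2 and Irf9 and binds the interferon-stimulated response element (ISRE). Type II interferon acts through the gamma-activated site (GAS). Epithelia keep a low level of many of these genes and raise them together when interferon arrives.

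The promoters of the members were searched for both elements, because interferon acts on its target genes through them. RefSeq promoters of assembly GRCm38.p6, from 250 bases before to 50 bases after a transcription start, were matched for 24 of the 29 genes. Letters GAAANNGAAA, on either strand and with overlaps counted, were taken as the ISRE. They occurred in 12 of the 24 genes, against 3.44% of 32851 promoters in the table and 3.99% of 27025 genes. Letters TTCNNNGAA were taken as the GAS and occurred in 6 of the 24 genes, against 8.3% of promoters and 9.55% of genes. Bst2 and Oas1a held both. Neither string was found for Xaf1, Tap1, Psmb9, Ifi44, Irf7, Irf9, Oasl1 or Oasl2, which says only that these letters were not in those windows. Windows of 60 bases are printed below 5′ to 3′ on the gene's strand for 5 members with an ISRE match and 2 with a GAS match, with the matches in capitals, so that the spacing of the repeats can be seen beside the values.
Isg15 (ISRE, chr4:156200856-156200915, minus strand): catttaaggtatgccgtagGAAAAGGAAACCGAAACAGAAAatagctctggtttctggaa
Ifit1 (ISRE, chr19:34640769-34640828, plus strand): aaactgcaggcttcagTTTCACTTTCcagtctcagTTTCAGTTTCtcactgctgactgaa
Ifit3 (ISRE, chr19:34583365-34583424, plus strand): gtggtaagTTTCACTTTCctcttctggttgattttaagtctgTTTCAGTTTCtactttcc
Oas1a (ISRE, chr5:120907526-120907585, minus strand): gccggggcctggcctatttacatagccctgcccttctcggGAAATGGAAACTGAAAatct
Gbp2 (ISRE, chr3:142620579-142620638, plus strand): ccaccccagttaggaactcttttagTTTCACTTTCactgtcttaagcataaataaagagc
Irf1 (GAS, chr11:53769898-53769957, plus strand): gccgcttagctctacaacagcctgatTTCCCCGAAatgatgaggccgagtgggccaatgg
Psmb8 (GAS, chr17:34198072-34198131, plus strand): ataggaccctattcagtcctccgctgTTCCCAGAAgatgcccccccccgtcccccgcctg

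The arrays differed in ways that touch every member. Control 3 was scanned on another day than the other 5 arrays, its median sample signal was 4.656 times the background against 11.31 to 12.41 times elsewhere, and 62.58% of its probes were well above background against 73.13% to 76.18%. Controls 1 and 2 were on slide 1, control 3 on slide 2 and the mutants on slide 3, and an effect of the slide cannot be told apart from one of the genotype. Over all genes the scaled median absolute difference was 0.104 between mutants 2 and 3 and 0.156 between controls 1 and 2, whereas every other pair of arrays gave 0.326 to 0.731. The labels call each array a biological replicate but name no animal, and the p-values below reflect only how these 6 arrays spread, which may in part be technical. The probe for Sox2 began at base 1846 of its transcript and read ratios of 6.26, 6.09 and 6.38 in controls and 5.67, 5.83 and 5.95 in mutants. Whether the transgene includes that stretch is not stated in the labels, and the probe therefore checks nothing about them. Squamous markers were high against the reference, with a median ratio over 10 genes of 3.56, 3.57 and 4.27 in controls and 3.18, 3.07 and 2.83 in mutants. Markers of the glandular stomach, 14 genes, had a median of 3.82, 3.62 and 0.40 on controls 1 to 3 and 1.67, 3.55 and 3.36 on mutants 1 to 3, so control 3 was the lowest and mutant 1 the next.

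Of the 29 interferon response genes, 1 differed between Sox2 mutants and controls at an adjusted p below 0.05 in limma's moderated test. This was Xaf1, which fell by 0.84 on the log2 scale, or 1.79-fold, and none rose past the threshold. The background was 2.83% of all genes tested (578 of 20403), with 1.41% higher and 1.43% lower, and the members' share of 3.45% lay near it. At an unadjusted p below 0.05 there were 4 members, Xaf1, Tap1, Ddx58 and Ifi35, which is 13.8% against 23.9% of all genes. The 3 mutants lay wholly outside the 3 controls for 7 members, above for Irf1, Oas1a, Ddx58, Ifi35, Psmb8 and Tap1 and below for Xaf1. This is 24.1% of members against 38% of all genes, of which 19.7% had mutants above and 18.2% had mutants below.

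Although few members passed, most differences were positive. They were above 0 for 23 members and below 0 for 6, with a median of 0.28, against 50.63% positive and a median of 0.006 over all genes tested. Without control 3 the tilt was gone, with 14 members positive and 15 negative and a median of -0.0020. Without control 3 and mutant 1 together 19 were positive with a median of 0.079, and with arrays weighted 20 were positive with a median of 0.088. Control 3 lay below both other controls for 25 of the 29 members, against 51.75% of all genes. Set against the average of the other controls, it had a median distance of -0.68 over members and -0.084 over all genes, and members ran from -2.18 for Rtp4 to 0.38 for Rsad2. Measured from the mean of controls 1 and 2, the members' median was -0.026 on mutant 1, 0.13 on mutant 2 and 0.033 on mutant 3. On mutant 1 the members divided evenly, 14 above that mean and 15 below, whereas 20 were above it on mutant 2 and 19 on mutant 3. All 29 members were well above background on the other 5 arrays and 26 were on control 3, where Ifit1, Ifit2 and Mx1 were not. No member was saturated on any array. The low values on control 3 went together with its lower signal, its own scan day and its low glandular markers; the part of these in the members' values was not tested.

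**Figure D1:**
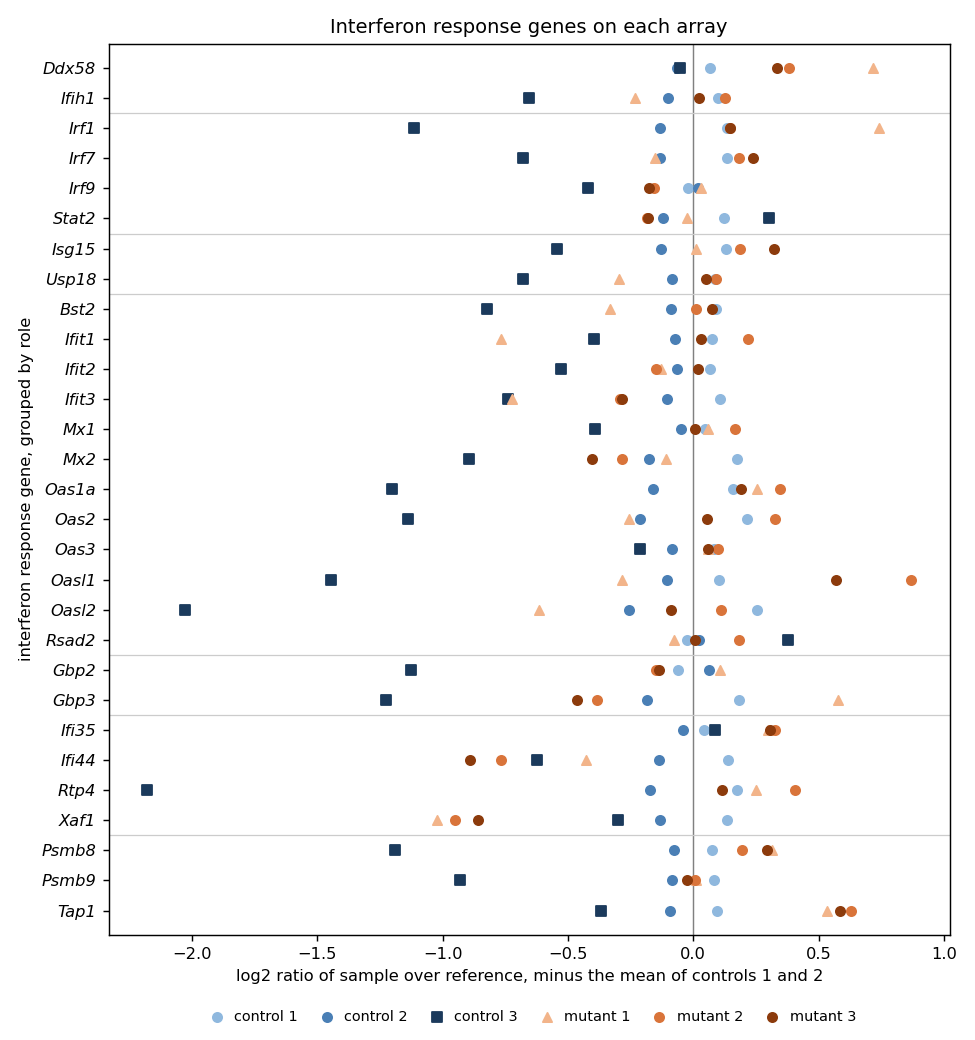
Each row is 1 interferon response gene, and the horizontal axis gives its log2 ratio of sample over reference on each of the 6 arrays minus the mean of controls 1 and 2. Horizontal lines part the roles (sensors, transcription factors, ISG15 system, antiviral effectors, guanylate-binding proteins, other induced genes, antigen processing). Control 3 (dark squares) lies to the left of both other controls for 25 of 29 genes, Xaf1 is the gene whose mutants all lie left of every control, and the mutants of Tap1 and Ddx58 lie to the right.

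Xaf1 encodes an interferon-induced, pro-apoptotic partner of the inhibitor-of-apoptosis protein XIAP. Its ratios were -2.10, -2.37 and -2.54 in controls 1 to 3 and -3.26, -3.19 and -3.09 in mutants 1 to 3. Every mutant lay below every control, by more than the controls spread among themselves. The means were -2.34 ± 0.22 (SD, n = 3) and -3.18 ± 0.082 (SD, n = 3). The difference of -0.84 had an SE of 0.148, a 95% confidence interval from -1.20 to -0.485 and an adjusted p of 0.0451 in limma. An exact permutation of the group labels (two-sided) returned p = 0.1, its floor for 3 arrays against 3. The sample signal itself was 934, 805 and 182 in controls and 365, 428 and 464 in mutants, while the reference signal was 4343, 3710 and 1684 against 3613, 3875 and 3930. On control 3 both channels were dim, and the ratio there stood near those of the other controls. Without control 3 the difference was -0.94 (1.92-fold lower, adjusted p = 0.0225), and over the 18 alternatives run it lay between -1.09 and -0.72. The call itself held in 6 of those 18, and adjusted p in limma ran from 0.000421 to 0.551. Among the 6, no filter on dim probes and the mean of all probes repeat the reported difference, because Xaf1 has 1 probe. Scan day as a block repeats the fit without control 3. The others gave less or no weight to control 3, alone or with mutant 1. The call was lost when any array other than control 3 was left out. Adjusted p was then 0.143 without control 1, 0.161 without control 2, 0.0821 without mutant 1, 0.174 without mutant 2 and 0.166 without mutant 3. It was lost as well with slide as a random block (0.551) and with each near-identical pair averaged to 1 sample (0.463).

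The 1 probe for Xaf1 lies across a splice junction, its 60 bases spanning 2014 bases of chromosome 11 in build mm9. The probe sequences of Xaf1 and Tap1 are given because the largest differences that did not rest on control 3 were read by these alone, with no second probe for either gene.
Xaf1 (chr11:72120129-72122142, plus strand, mm9): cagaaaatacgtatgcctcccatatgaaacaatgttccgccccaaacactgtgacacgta
Tap1 (chr17:34330854-34330913, plus strand, mm9): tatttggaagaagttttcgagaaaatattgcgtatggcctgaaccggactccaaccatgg

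Tap1, a subunit of the transporter that carries peptides into the endoplasmic reticulum for MHC class I, had the largest difference upward that did not rest on control 3. Its ratios were -1.47, -1.66 and -1.94 in controls and -1.04, -0.94 and -0.98 in mutants. The mutants lay close together and all above the controls. The difference was 0.71 (1.63-fold, 95% confidence interval 0.346 to 1.06, adjusted p = 0.0659 in limma), just outside the threshold. Without control 3 it was 0.58 with an adjusted p of 0.0399. Its neighbours in the class II region of the MHC on chromosome 17, Psmb8 and Psmb9, encode catalytic subunits of the immunoproteasome, which cuts the peptides that Tap1 carries. Psmb8 had ratios of -2.11, -2.26 and -3.37 in controls and -1.87, -1.99 and -1.89 in mutants. Its mutants were higher than every control, but control 3 stood far below the others, and the difference of 0.66 (adjusted p = 0.279) became 0.27 without it. A second Psmb8 probe gave 0.55 and 0.25. Psmb9 had ratios of -1.72, -1.89 and -2.73 in controls and -1.79, -1.79 and -1.83 in mutants. Its mutants fell between controls 1 and 2, and its difference of 0.31 was -0.0020 without control 3. So of 3 antigen-processing members next to each other in the genome, the difference without control 3 was 0.58, 0.27 and -0.0020.

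**Figure D2:**
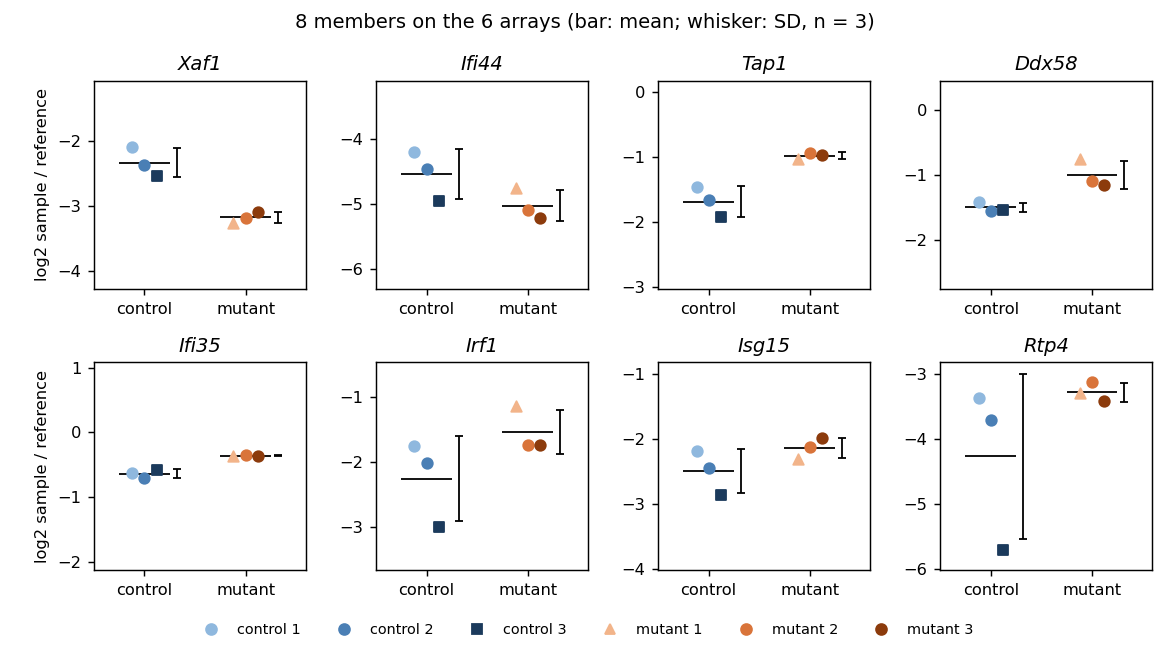
Each panel plots the log2 ratio of sample over reference for 1 of 8 members on 3 control and 3 mutant arrays, with the group mean as a bar and the SD (n = 3) as a whisker. Xaf1 and Tap1 have groups that do not overlap and tight mutants, whereas the control spread of Irf1 and Rtp4 comes from control 3 at -2.99 and -5.71.

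Cytosolic sensors of viral RNA start the response. Ddx58 encodes RIG-I, and its ratios were -1.41, -1.55 and -1.53 in controls and -0.76, -1.10 and -1.15 in mutants. All mutants were higher than all controls, mutant 1 most of all, and control 3 did not stand apart. The difference was 0.50 (95% confidence interval 0.149 to 0.843, adjusted p = 0.121) and 0.48 without control 3, but 1.19 from the sample channel alone and 0.23 as the mean of all its probes. Its 3 further probes did not move alike, with differences of 0.51, 0.0046 and -0.076. On control 3 the sample signal of the tested probe was 112, against 1284 and 1276 on the other controls. Ifih1, which encodes the related sensor MDA5, had ratios of 0.34, 0.14 and -0.42 in controls and 0.01, 0.37 and 0.26 in mutants. These overlapped throughout, and the difference of 0.19 (adjusted p = 0.631) was -0.03 without control 3.

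The transcription factors of the pathway did not pass the threshold, adjusted or not. Stat2 and Irf9 are subunits of ISGF3. Stat2 had ratios of -0.16, -0.40 and 0.02 in controls and -0.31, -0.47 and -0.46 in mutants, with a difference of -0.23 (95% confidence interval -0.584 to 0.124) and -0.13 without control 3. Irf9 had ratios of -0.06, -0.02 and -0.46 in controls and -0.01, -0.19 and -0.22 in mutants, with a difference of 0.04 (-0.347 to 0.423). Both sets of values overlapped. Irf7, which drives the later wave of interferon alpha genes, had ratios of -1.79, -2.06 and -2.60 in controls and -2.08, -1.74 and -1.69 in mutants. Its difference of 0.32 was 0.09 without control 3. Irf1, a factor that interferon gamma induces, had ratios of -1.75, -2.02 and -2.99 in controls and -1.14, -1.73 and -1.73 in mutants. Its mutants were all above the controls, although mutants 2 and 3 were only just above control 1. The difference was 0.72 (adjusted p = 0.273) and 0.35 without control 3. A second Irf1 probe, on which control 3 did not stand below the others, gave 0.51, and 0.57 without control 3, with an adjusted p over all probes of 0.0892 on the 6 arrays.

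Isg15 encodes the ubiquitin-like protein that is joined to other proteins during the response, and Usp18 the protease that removes it and dampens the receptor. Isg15 had ratios of -2.19, -2.45 and -2.86 in controls and -2.31, -2.13 and -1.99 in mutants. Mutant 1 lay between controls 1 and 2 and the other mutants were higher. The difference was 0.35 (95% confidence interval -0.128 to 0.834, adjusted p = 0.324), 0.17 without control 3 and 0.56 from the sample channel alone. Usp18 had ratios of -2.44, -2.62 and -3.21 in controls and -2.82, -2.44 and -2.48 in mutants. Its values overlapped, and its difference of 0.17 was -0.05 without control 3.

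The 12 antiviral effectors had 9 positive differences with a median of 0.17, and 6 positive with a median of -0.02 without control 3. None passed the threshold, and none had an unadjusted p below 0.05. The Oas family encodes synthetases of the 2′-5′ oligoadenylates that switch on RNase L, and Oasl1 and Oasl2 are relatives in a gene cluster on chromosome 5. Oas1a had ratios of -0.91, -1.23 and -2.27 in controls and -0.81, -0.72 and -0.88 in mutants. Its mutants were all higher, and its difference of 0.66 was 0.26 without control 3. Oasl1 had ratios of -0.62, -0.83 and -2.17 in controls and -1.01, 0.14 and -0.15 in mutants. Mutant 1 lay below controls 1 and 2 whereas mutants 2 and 3 lay above all controls. The difference of 0.87 had an adjusted p of 0.321 and was 0.39 without control 3. Oasl2 had ratios of -1.68, -2.19 and -3.96 in controls and -2.55, -1.82 and -2.02 in mutants, and its difference turned from 0.48 to -0.20 without control 3. Oas2 went from 0.42 to 0.04 and Oas3 from 0.14 to 0.07.

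The Ifit genes, neighbours on chromosome 19 that encode binders of foreign RNA, had overlapping groups. Ifit3 had ratios of -0.58, -0.79 and -1.43 in controls and -1.41, -0.98 and -0.97 in mutants. Its mutants lay below controls 1 and 2 and above control 3, so the difference was -0.19 with all arrays and -0.43 without control 3 (adjusted p = 0.681 and 0.179). Ifit1 had ratios of -3.44, -3.59 and -3.91 in controls and -4.28, -3.30 and -3.48 in mutants. Mutant 1 was the lowest of the 6 arrays, and the difference of -0.04 had a 95% confidence interval from -0.724 to 0.642. Ifit2 differed by 0.09 (-0.346 to 0.526). The dynamin-like GTPases Mx1 and Mx2 differed by 0.21 and 0.03, and by 0.08 and -0.27 without control 3. Signals of Mx1 were low on all 6 arrays, from 73 to 170 for the sample and from 115 to 165 for the reference. Rsad2, which encodes viperin, differed by -0.09 and its 2 further probes by -0.12 and -0.63. Bst2, which encodes tetherin, the protein that holds budding viruses at the membrane, had ratios of -1.85, -2.04 and -2.77 in controls and -2.28, -1.93 and -1.87 in mutants. Its difference of 0.19 was -0.08 without control 3.

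The guanylate-binding proteins Gbp2 and Gbp3 are GTPases that attack the vacuoles of intracellular pathogens. Gbp2 had ratios of -0.48, -0.35 and -1.54 in controls and -0.31, -0.56 and -0.55 in mutants. Gbp3 had ratios of -0.89, -1.26 and -2.30 in controls and -0.49, -1.46 and -1.54 in mutants. In both genes control 3 was the lowest array, and in Gbp3 mutant 1 stood 1.00 above the mean of the other mutants. Both had a difference of 0.32, which was -0.06 and -0.09 without control 3.

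Among the remaining induced genes, Ifi35 showed a small and even difference. Its ratios were -0.62, -0.71 and -0.58 in controls and -0.37, -0.34 and -0.36 in mutants. The mutants spanned a narrow range wholly above the controls, and control 3 was the highest control. The difference was 0.28 (95% confidence interval 0.0245 to 0.536, adjusted p = 0.182) and 0.31 without control 3. Ifi44, which encodes a cytoplasmic protein with antiviral activity, had ratios of -4.19, -4.46 and -4.95 in controls and -4.75, -5.09 and -5.22 in mutants. Mutants 2 and 3 were below every control and mutant 1 was above control 3. The difference was -0.49 (adjusted p = 0.256) and -0.70 without control 3 (0.0795), and a second Ifi44 probe showed 0.014. Rtp4, which encodes a chaperone of membrane receptors, had ratios of -3.36, -3.71 and -5.71 in controls and -3.28, -3.13 and -3.42 in mutants. It had the highest difference of all members, 0.98, but an adjusted p of 0.352, and without control 3 it was 0.26. On the other 5 arrays its ratios lay between -3.71 and -3.13.

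**Figure D3:**
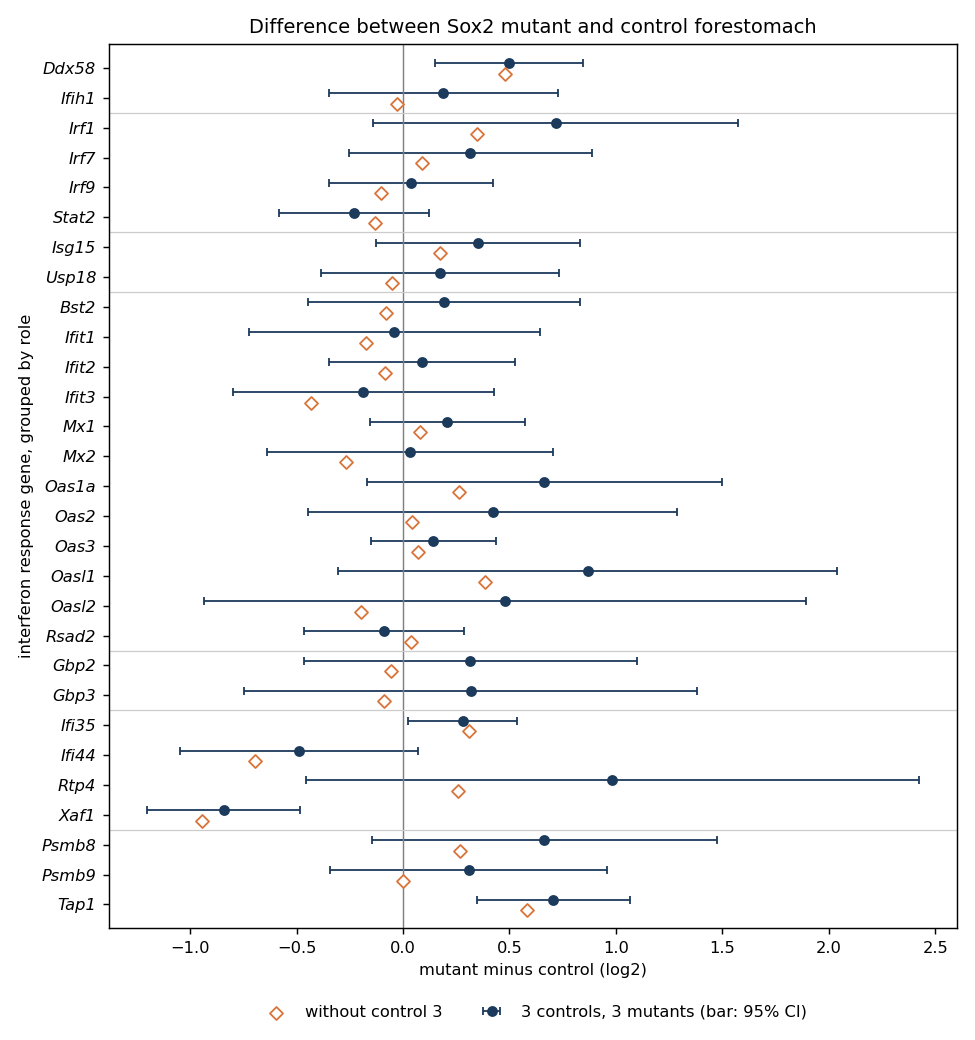
Filled points give the mutant minus control difference (log2) of each member over 3 controls and 3 mutants with its 95% confidence interval, and open diamonds give the difference without control 3. The intervals of Xaf1, Tap1, Ddx58 and Ifi35 lie to one side of 0, and for those 4 genes the diamond stays close to the filled point; for Rtp4 it moves from 0.98 to 0.26 and for Oasl2 from 0.48 to -0.20.

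Without control 3, 2 members passed the threshold, Xaf1 lower and Tap1 higher, or 6.9% against 7.22% of all genes. Mutant 1 was the mutant that differed most from the others. It stood above the mean of mutants 2 and 3 by 1.00 for Gbp3 and 0.60 for Irf1, and fell from it by 1.01 for Oasl1, 0.89 for Ifit1 and 0.63 for Oasl2. With control 3 and mutant 1 both left out, the 2 near-identical pairs remained and 6 members passed: Oasl1, Ddx58, Ifi35 and Tap1 were higher and Ifi44 and Xaf1 lower. That is 20.7% of members against 37.7% of all genes. Weighting the arrays by their agreement called the same 6, against 42% of all genes, with weights of 0.08387 for control 3 and 0.1728 for mutant 1. The median absolute difference over members was 0.0915 between mutants 2 and 3, 0.200 between controls 1 and 2 and 0.144 between control 1 and mutant 2.

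The rest of the pathway was read from lists of genes beside the members. Of 13 interferon genes on the array 8 were tested, all of them with small differences from -0.27 to 0.28 and none past the threshold. At an unadjusted p below 0.05 in limma there was 1, against 23.9% of all genes, and 2 differences were positive. Ifna13 had the smallest p, with ratios of 0.39, 0.40 and 0.50 in controls and 0.14, 0.22 and 0.12 in mutants, a difference of -0.27 and an adjusted p of 0.196. Ifna2 differed by -0.27, Ifna9 by 0.28 and Ifna5 by -0.19; from the sample channel alone Ifna9 was -0.18, and Ifna13, Ifna2 and Ifna5 were -0.80, -0.70 and -0.49. The interferon alpha genes are near-identical copies, so their probes may read one another. Their sample signals were low. Over the 6 arrays they were 195 to 308 for Ifna13, 124 to 184 for Ifna2, 117 to 212 for Ifna9 and 101 to 144 for Ifna5. Small differences at such signals do not show that interferon alpha RNA was unchanged. Ifnb1, Ifna4 and Ifnk were well above background on no array, and Ifng and Ifne on 1 array at most. Changes in interferon beta and gamma RNA were therefore not detectable at this signal.

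Of 14 genes for receptors and signalling, 8 differences were positive and none passed the threshold. An unadjusted p below 0.05 in limma was found for 7 of them, against 23.9% of all genes. Ifngr1, the ligand-binding chain of the interferon gamma receptor, had ratios of -0.03, -0.19 and -0.88 in controls and 0.76, 0.58 and 0.53 in mutants. All mutants were higher than all controls, with a difference of 0.99 (adjusted p = 0.085) and of 0.74 without control 3 (0.0321). Ifnlr1, the specific chain of the type III interferon receptor of epithelia, had ratios of 2.72, 2.86 and 3.40 in controls and 1.95, 2.37 and 2.33 in mutants. All mutants were lower, with a difference of -0.77 (adjusted p = 0.117). Pias1 differed by -0.52 (0.114) and the kinase Jak2 by 0.50 (0.146).

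Of 16 sensors and adaptors 11 differences were positive, and Tlr7, an endosomal receptor for single-stranded RNA, rose. Its ratios were -2.24, -2.22 and -2.16 in controls and -1.12, -1.46 and -1.43 in mutants, a difference of 0.87 with an adjusted p of 0.0322. Control 3, where the probe was not well above background, did not stand apart, and without it the difference was 0.90. Eif2ak2, the RNA-activated kinase PKR, differed by 0.82 (adjusted p = 0.0668), Tbk1 by 0.49 (0.105) and Sting1 by 0.78 (0.177), with all mutants above all controls for each; without control 3 the difference of Sting1 was 0.49.

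A further 55 interferon-induced genes had 32 positive differences, a median of 0.18 and, without control 3, 25 positive and a median of -0.13. Of these 2 rose and 1 fell. Samhd1, which encodes a phosphohydrolase that depletes nucleotides, had ratios of -0.88, -0.75 and -0.66 in controls and 0.67, 0.64 and 0.56 in mutants. The groups were far apart, and the difference of 1.39 (2.62-fold, adjusted p = 0.00719) exceeded that of every member. Ifitm1, a membrane protein that blocks viral entry, had ratios of 2.13, 1.64 and 1.41 in controls and from 2.75 (mutant 3) to 3.103 (mutant 1) in mutants, a rise of 1.20 (adjusted p = 0.0456). The sample channel alone gave 2.50 for it, and its reference signal was higher in mutants (3724, 734 and 795) than in controls (392, 450 and 339). Gbp6, a guanylate-binding protein like Gbp2 and Gbp3, had ratios of -1.26, -1.45 and -1.32 in controls and -2.15, -2.16 and -2.24 in mutants. It fell by 0.84 (adjusted p = 0.0236 in limma), and the sample channel alone gave -0.47. On control 3 its probe was not well above background. Its sample signals were low, at 215, 194 and 86 in controls and 129, 128 and 123 in mutants. Before normalization, control 3 thus lay below every mutant in this channel. Parp12 differed by 0.66 (adjusted p = 0.0571).

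Of 20 genes of MHC class I presentation beside Tap1, Psmb8 and Psmb9, 17 differences were positive, against 50.63% of all genes. Without control 3 there were 16, against 47.45% of all genes. The list's median was 0.23 with all arrays and 0.27 without control 3, so the tilt of this list did not rest on that array. None passed the threshold. An unadjusted p below 0.05 in limma was found for 5 of the 20, near the share of 23.9% of all genes. H2-K1, a classical class I heavy chain, had ratios of -0.73, -0.72 and -0.78 in controls and 0.26, -0.25 and -0.26 in mutants, a difference of 0.66 (adjusted p = 0.0985). All mutants were higher and mutant 1 was highest. Erap1, which trims peptides, differed by 0.65 (0.15), Tap2, the partner of Tap1, by 0.49 (0.159) and H2-Q6 by 0.42 (0.17). Class I heavy chains are near-identical in places, and probes of the H2 genes may read one another. Over the 5 lists 4 of 113 genes passed the threshold, or 3.54% against 2.83% of all genes, and 36 had an unadjusted p below 0.05, or 31.9% against 23.9%. Of the 18 alternatives the call held in 13 for Samhd1, 8 for Tlr7, 8 for Gbp6 and 6 for Ifitm1. None of the 113 passed without control 2, without mutant 2 or without mutant 3, and 1 did without control 1.

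**Figure D4:**
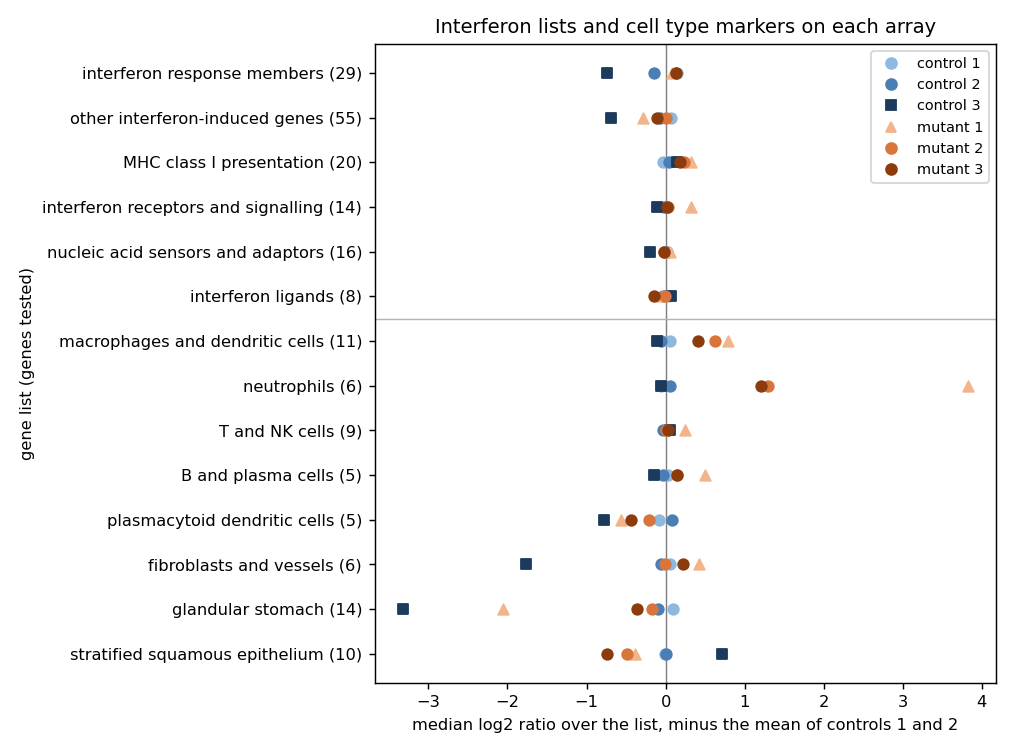
For each gene list the points give the median log2 ratio over its tested genes on each of the 6 arrays, minus the mean of the medians of controls 1 and 2, with the number of genes tested in brackets. The members and the other interferon-induced genes are lowest on control 3 (dark squares), and the other induced genes are low on mutant 1 as well. Macrophage markers lie to the right of 0 on all 3 mutants. Glandular markers lie far to the left on control 3 and on mutant 1, and fibroblast markers on control 3. The neutrophil row holds markers that entered only through the mutants, so its position is not read.

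Leukocytes express many of these genes as well, so markers of other cells were read on the same arrays. In bulk tissue fewer cells of a type and less RNA per cell cannot be told apart. Of 11 macrophage and dendritic cell markers 9 had positive differences and 2 negative, where 50.63% of all genes were positive. The list's median was 0.72 with all arrays, 0.63 without control 3 and 0.22 without control 3 and mutant 1. Cd68 rose by 1.49 (adjusted p = 0.0166 in limma) and Csf1r by 0.75 (0.0488). These were the only 2 past the threshold, which 2.83% of all genes passed. Cd14 differed by 0.85 (0.0645) and Mrc1 by 1.59 (0.15), or 0.94 without control 3. The summed sample signal of these 11 markers ran from 28345 to 75532.5 in controls and from 102575 to 141073 in mutants, without overlap. Summed signals here and below are of the sample channel after normalization within and between arrays, not scanner intensities. Among neutrophil markers Retnlg, Ngp and Csf3r were well above background on the 3 mutants and on no control. They entered only through the group in which they were high, so no size, count or test is given for them. A summed signal of the neutrophil markers would hold these genes and is not given for the same reason. The 9 T and NK cell markers tested had a median difference of 0.08; Cd3d differed by 1.44 (adjusted p = 0.159), Klrb1c by -0.32 (0.162), Lck by 0.81 (0.213) and Nkg7 by -0.36 (0.325), while Cd8a, Ncr1 and Gzma did not pass the filter on dim probes. Their summed signal ran from 2693 to 2979 in controls and from 3027 to 5945 in mutants.

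Of the B and plasma cell markers Jchain differed by 0.31, Ms4a1 by 0.23 and Mzb1 by 0.45, none past the threshold, the rest of the list is not reported here, and Cd79a was well above background on no array. Plasmacytoid dendritic cells are the main source of interferon alpha in blood. Their 5 markers had 1 positive difference, Ccr9 at 0.96 (adjusted p = 0.0941), beside Ly6d, which squamous epithelium also makes, at -0.74, Siglech at -0.26 and Pacsin1 at -0.21. Their summed signal is not given, because it holds Ly6d and so does not measure these cells alone. The pan-leukocyte gene Ptprc had ratios of -4.90, -4.96 and -5.74 in controls and -2.85, -4.88 and -4.86 in mutants; mutants 2 and 3 stood close to controls 1 and 2 and mutant 1 far above them. All 6 fibroblast and vessel markers had positive differences with all arrays, Col1a2 by 0.83 and Pdgfra by 1.00, Col3a1 by 0.77 and Pecam1 by 0.23, none past the threshold, and their summed signal ran from 42592 to 183869 in controls and from 179134 to 211531 in mutants. On control 3 they lay below controls 1 and 2 by a median of -2.12, and without it the list's median went from 0.76 to 0.12, with 5 of 6 positive. Of the 14 glandular markers 10 had positive differences with a median of 0.26, and without control 3 there were 2 with a median of -0.64. Those with the smallest p, Tff2, Ghrl, Gkn2 and Tff1 differed by 0.73, 0.75, 0.94 and 0.46 with all arrays and by -0.24, -0.33, -0.64 and -0.45 without control 3. Of the squamous markers Ivl differed by -1.26 (adjusted p = 0.0613), Krt15 by -0.56 (0.0837), Krt14 by -0.58 (0.166) and Krt5 by -0.42 (0.178), but from the sample channel alone Krt14 and Krt5 were 0.93 and 0.30. The part of these cells in the values of Xaf1, Tap1, Tlr7 or any other interferon gene was not tested.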

How the data were processed

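The deposited scanner output gives each spot's intensity in both channels. Per the file headers, control 3 was read with Agilent Feature Extraction 10.7.3.1 and the other arrays with 10.5.1.1, while the submitters' processing notes name version 9.1; probe coordinates are of build mm9. The authors' deposited log2 ratios, with normalization and centring not given in the sources used here, served as an alternative; its columns ran as sample over reference, with medians of 0.026 to 0.06. Its mutant 1 column matched the scanner values of mutant 3 best (r = 0.9729 across probes, against 0.8861) and its mutant 3 column those of mutant 1 (0.969 against 0.8812); both are mutants, and array numbers here follow the scanner files.

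Signals were corrected by normexp (offset 50) and loess within arrays in limma 3.58.1 under R 4.3.3, without control spots and spots marked as outliers. Spots of a probe were averaged. For the summed signals of marker lists alone, average intensities were also quantile normalized between arrays. Probes entered if their Cy5 signal was well above background on 3 or more of 6 arrays, and a gene was read by its brightest probe (7067 genes had several). Names came from the files, updated through the RefSeq table of GRCm38.p6 for 79.5% of 41174 probes; 272 had no gene name. Groups were compared with lmFit and eBayes, two-sided, with Benjamini-Hochberg adjustment over all genes (threshold 0.05, 4 residual degrees of freedom). The fit was tested on simulated data with independent arrays, which says nothing about the near-identical pairs or control 3. The alternatives concerned background correction, normalization, channel, filter, probes, source, slide, scan day, pairing, array weights and left-out arrays. All 29 members are named, and of each further list up to 4 genes with the smallest p and any past the threshold. Members and lists were chosen with earlier results of these data known. Values of some genes of the further lists are not reported here.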

Additional observations from a re-analysis of the deposited data

How the results depend on the processing

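The signs of 17 members held under all 18 alternatives; of 522 member values, 444 kept sign and side of the threshold. Members called numbered 0 with Agilent's processed signals, with arrays scaled to one spread, with the sample channel alone, in the deposited table, with slide as a random block, with the replicate block and with near-identical arrays averaged. They numbered 2 with scan day as a block, 6 with array weights, 6 without control 3 and mutant 1, and 0 to 2 with 1 array left out. Scan day as a block is the same fit as leaving out control 3. Positive members numbered 14 with scan day as a block and 14 to 24 with 1 array left out. The other pathway genes called, 4 as reported, numbered 1 with processed signals, 1 with the sample channel alone, 1 in the deposited table, 0 with slide as a block, 13 with scan day as a block, 1 with the replicate block, 60 with array weights, 0 with pairs averaged, 55 without control 3 and mutant 1 and 0 to 13 with 1 array left out. Over all genes 578 were called as reported, 327 with processed signals, 302 with the sample channel alone, 388 in the deposited table, 4 with slide as a block, 1474 with scan day as a block, 137 with the replicate block, 8572 with array weights, 7692 without control 3 and mutant 1, 34 to 1474 with 1 array left out, and 0 with pairs averaged, where 2181 had an unadjusted p below 0.05 in limma. Same-numbered arrays correlated at 0.0058, 0.0187 and 0.1255 in their deviations from the group means, so the numbers were not taken to pair the samples.

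Signs turned as follows. Processed signals gave Ifit1 0.87 and Irf9 -0.028. Scaling to one spread gave Ifit2 -0.17, Mx2 -0.17, Usp18 -0.070 and Bst2 -0.0019. The sample channel alone gave Ifit1 0.49, Mx2 -0.035, Ifih1 -0.085 and Bst2 -0.079. Ifit1 was 0.45 in the deposited table and 0.0026 with slide as a block. Scan day as a block gave Ifit2 -0.087, Irf9 -0.10, Mx2 -0.27, Oasl2 -0.20, Rsad2 0.037, Usp18 -0.052, Ifih1 -0.028, Bst2 -0.081, Gbp2 -0.059, Gbp3 -0.090 and Psmb9 -0.0020. Array weights gave Ifit1 0.12, Ifit2 -0.049, Irf9 -0.16, Mx2 -0.31, Rsad2 0.080, Gbp2 -0.12 and Gbp3 -0.36. Without control 3 and mutant 1 the values were Ifit1 0.12, Ifit2 -0.066, Irf9 -0.17, Mx2 -0.34, Rsad2 0.094, Gbp2 -0.14, Gbp3 -0.42 and Psmb9 -0.0089. With 1 array left out, values ran from -0.24 to 0.26 for Ifit1, -0.087 to 0.21 for Ifit2, -0.10 to 0.12 for Irf9, -0.27 to 0.27 for Mx2, -0.20 to 0.94 for Oasl2, -0.16 to 0.037 for Rsad2, -0.052 to 0.33 for Usp18, -0.028 to 0.35 for Ifih1, -0.081 to 0.38 for Bst2, -0.059 to 0.54 for Gbp2, -0.090 to 0.61 for Gbp3 and -0.0020 to 0.50 for Psmb9. The cause was not tested beyond the arrays left out. The number of arrays limits the precision, and on control 3 the low signal limits Ifit1, Ifit2 and Mx1. For Mx1 the signal was low on the other arrays as well.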

Other observations

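Without control 3, of the 55 further interferon-induced genes 4 were called higher and 4 lower, where 7.22% of all genes were called in either direction. Those named here beyond Samhd1, Ifitm1, Gbp6 and Parp12 were chosen after their values were seen. Of the immunity-related GTPases, 3 lay low on the mutants and on control 3 alike. Iigp1 had ratios of 0.67, 0.15 and -1.62 in controls and -1.36, -1.04 and -1.03 in mutants, with a difference of -0.88 on all arrays (adjusted p = 0.382 in limma) and -1.55 without control 3 (0.0225). Irgm2 had ratios of -0.05, -0.42 and -2.07 in controls and -1.46, -1.08 and -1.20 in mutants, and its difference of -0.40 was -1.01 without control 3 (0.0377). Tgtp1, which has a near-identical copy that its probe may read, had a difference of -0.39 on all arrays and -0.78 without control 3 (0.0198). Others of the family did not: Irgm1 differed by 0.35 on all arrays and 0.12 without control 3, and Igtp by 0.47 and -0.14. Ifi47, also of this family, differed by -0.09 on all arrays and -0.44 without control 3 (0.241). Ifitm3, a neighbour of Ifitm1, had ratios of -0.82, -0.83 and -1.99 in controls and 0.65, 0.04 and 0.06 in mutants, with a difference of 1.47 on all arrays (0.0909) and 1.08 without control 3 (0.0492).

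For 3 class I heavy chains control 3 lay with the mutants. They were chosen after their values were seen. They are the 3 of the 20 class I presentation genes called without control 3, where 7.22% of all genes were called. Their probes may read one another, so they may not be separate results. H2-D1 had ratios of 0.07, 0.16 and 0.96 in controls and 0.86, 0.77 and 0.66 in mutants. Its difference was 0.37 on all arrays (adjusted p = 0.404 in limma) and 0.65 without control 3 (0.0336). H2-Q2 and H2-Q7 differed by 0.32 and 0.31 on all arrays and by 0.54 and 0.49 without control 3 (0.0396 and 0.0461).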
